A study of Danio rerio with 2 samples.

Results

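Genes of the unfolded protein response were followed across cell groups of juvenile zebrafish cartilage, in wild-type (WT) animals and in nkx3.2 mutants. The 10 genes are xbp1, hspa5, hsp90b1, hyou1, pdia6, pdia4, manf, dnajb11, sdf2l1 and creld2, taken by symbol from the 35117 genes of the deposited tables, and each symbol matched a single entry. Proteins bound for the cell surface or the matrix are folded in the endoplasmic reticulum by chaperones, by enzymes that form disulfide bonds and by their helpers. When unfolded protein builds up, sensors in the membrane of this compartment are activated. One of them, Ern1, splices the xbp1 messenger so that it encodes an active transcription factor, and Xbp1 and Atf6 then raise the genes of the folding machinery. Cartilage and fibrous connective tissue cells secrete large amounts of collagen and other matrix proteins and are known for a well developed folding machinery. The libraries count messenger ends, so spliced and unspliced xbp1 were counted together, and no count measures the activity of the pathway.

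The series holds 1 library of WT fish at 21 days post fertilization and 1 library of fish homozygous for nkx3.2 el802 at 22 days. Both carry the transgenes Tg(fli1a:EGFP)y1 and Tg(sox10:DsRed)el10, and live cells positive for both reporters were sorted from dissociated tissue labelled cartilage. The number of fish behind a library is not given in the sources used here. Messenger ends were counted as unique molecular identifiers (UMIs) with the 10x Genomics 3′ kit.

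The WT library held 2057 cell barcodes and 13927936 UMIs, with a median of 5781 per cell, and the mutant library 2005 barcodes and 16349558 UMIs, with a median of 7005. The gene nkx3.2 itself was counted at 45.7 CPM (UMIs of a gene per 1000000 UMIs of the cells summed) in the WT library and at 41.35 CPM in the other. Its level does not check the label, since the position of the lesion in the transcript is not given in the sources used here. With 1 library per genotype, genotype, age and library cannot be told apart. No test was run, and every range in parentheses is a 95% interval for counting error only. Ribosomal protein genes took 48.5% of UMIs in WT and 54.0% in the mutant, and 23 cartilage matrix genes, called cargo here because the cells secrete their products, took 6.25% and 4.27%. Markers of muscle, of neural and pigment cells and of macrophages and neutrophils summed to at most 14.1 CPM in any group compared. Globin genes summed to between 9.49 and 22.6 CPM over the WT groups and to at most 8.56 CPM in the mutant ones. The 4 epithelial genes of the krt4/cfd gate summed to 448 CPM over all WT cells and 310.0 CPM over all mutant cells, with 23.2 to 1808 CPM over the WT groups compared; their part in the results was not tested.

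Cells were placed in groups by marker genes, none of which is among the 10 genes. The matn1-high cells (640 WT, 425 mutant) carry the cartilage matrix gene matn1 at 8000 CPM or more, and the matn1-intermediate cells (261 and 556) at 2000 to 8000 CPM. The fn1b/tgm2l-high cells (299 and 232) passed a gate on the sum of fn1b, tgm2l, f13a1b and mgp, taken here as genes of the perichondrium, the sheath of cartilage. A cell could pass on any of these genes, so the group may pool unlike cells. The mmp13b/spp1-high cells (97 and 59) and the col10a1a-positive cells (84 and 43) carry genes of hypertrophic cartilage, and the col5a1/mfap2-high cells (239 and 156) genes of fibrous connective tissue. The remaining groups were ccl25b/cxcl12a-high cells (92 and 104), cycling cells with genes of S phase and mitosis (101 and 108) and low-marker cells that passed no gate (166 and 281). In WT, col2a1a, the main fibrillar collagen of cartilage, stood at 22703 CPM in matn1-high cells and at 1917 CPM in col5a1/mfap2-high cells, so the label cartilage held for the former by its markers and only weakly for the latter. Because matn1 was itself lower in the mutant library, the matn1 gates sort cells of the 2 libraries differently.

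Among the 9 groups compared, the highest WT levels of the 10 genes lay mostly outside the matn1-high cells, and different genes peaked in different groups. The 9 genes other than xbp1 summed to 348 CPM (332 to 364) in matn1-high cells, 653 CPM (614 to 694) in fn1b/tgm2l-high cells, 716 CPM (653 to 784) in mmp13b/spp1-high cells and 921 CPM (862 to 983) in col5a1/mfap2-high cells. The groups with the most transcripts of these 9 genes were therefore not those with the most cartilage cargo. Per 1000 cargo UMIs the same sum was 3.34 in matn1-high cells and 93.6 in col5a1/mfap2-high cells, whose own collagens are not in the cargo list. Folding genes outside the 9 went both ways. In WT matn1-high and col5a1/mfap2-high cells p4hb was at 801 and 242 CPM, and serpinh1b at 718 and 1099 CPM. A further 28 WT cells with the osteoblast genes ifitm5 and bglapl were too few for the comparison. They carried xbp1 at 1310 CPM (1128 to 1512), hspa5 at 599 CPM (478 to 740) and manf at 155 CPM (97.1 to 235). Their sum of the 9 genes was 1176 CPM (1005 to 1369), above that of every group compared. The orders below leave these cells out.

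The factor gene xbp1 gave 12298 of the 18643 UMIs of the 10 genes in WT. Its level was 1237 CPM in fn1b/tgm2l-high and 1214 CPM in mmp13b/spp1-high cells. It lay between 731 and 857 CPM in 6 of the other groups and at 677.5 CPM in cycling cells. The top pair stood apart from all others compared, and no other neighbours in this order differed beyond counting error. The fold of fn1b/tgm2l-high over cycling cells was 1.83 (1.67 to 1.998). Over matn1-high cells it was 1.46 (1.38 to 1.54), which shrank to a log2 fold of 0.26 when mitochondrial, ribosomal protein and cargo genes were left out of the total.

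The central chaperone gene hspa5 encodes BiP, which binds unfolded stretches of new proteins and keeps the stress sensors quiet. It was at 551 CPM (505 to 599) in col5a1/mfap2-high cells, 371 CPM (342 to 403) in fn1b/tgm2l-high, 360.4 CPM (316 to 409) in mmp13b/spp1-high and 339 CPM (286 to 400) in ccl25b/cxcl12a-high cells. Cycling cells had 261.5 CPM (230.3 to 296), low-marker cells 177 CPM (149 to 208), col10a1a-positive cells 144 CPM (114 to 179.5), matn1-intermediate cells 132 CPM (117 to 149) and matn1-high cells 119.7 CPM (110.6 to 129). The col5a1/mfap2-high cells stood above every other group compared, and the fold over matn1-high cells was 4.6 (4.10 to 5.16). Of the 8 steps in this order, 3 exceeded counting error: below the col5a1/mfap2-high, the ccl25b/cxcl12a-high and the cycling cells. Several chaperone genes for stress outside this compartment were also higher in WT col5a1/mfap2-high than in WT matn1-high cells. There hsp70l was at 634 and 44.2 CPM, hsp70.3 at 1959 and 251 CPM and dnajb1b at 1009 and 175 CPM. By contrast, hspa4b was lower, at 28.2 and 39.4 CPM. Whether handling stress has a part in the WT group differences of hspa5, hsp90b1 and hyou1 was not tested.

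The BiP partner genes did not follow a single order. For hyou1, whose product exchanges the nucleotide bound by BiP, WT levels were 36.2 CPM (25.4 to 50.2) in col5a1/mfap2-high, 25.6 CPM (14.9 to 41.0) in mmp13b/spp1-high and 7.25 CPM (5.16 to 9.91) in matn1-high cells. Like hspa5, it was highest in col5a1/mfap2-high cells, 4.999-fold (3.09 to 8.07) above matn1-high cells. Unlike for hspa5, the step to the next group, mmp13b/spp1-high cells, was within counting error, at 1.41-fold (0.774 to 2.68). By contrast, dnajb11, which hands unfolded proteins to BiP as a J-domain partner, stood at 40.7 CPM (26.8 to 59.2) in mmp13b/spp1-high, 28.8 CPM (24.5 to 33.7) in matn1-high and 14.1 CPM (7.70 to 23.6) in col5a1/mfap2-high cells. It was thus lower, not higher, in the col5a1/mfap2-high than in the matn1-high cells, with a fold of 0.489 (0.261 to 0.846). The gene sdf2l1, whose product forms a complex with Dnajb11 in mammals, ranged from 2.37 CPM in ccl25b/cxcl12a-high cells, with 1 UMI, to 19.6 CPM in mmp13b/spp1-high cells. None of its neighbours in the order differed beyond counting error. The gene manf encodes a secreted factor that binds BiP in mammals, and its level was 82.95 CPM (62.5 to 108) in mmp13b/spp1-high, 46.3 CPM (33.9 to 61.8) in col5a1/mfap2-high and 39.4 CPM (34.3 to 45.1) in matn1-high cells. The mmp13b/spp1-high cells stood above the next group, cycling cells, by 1.71-fold (1.14 to 2.59). With all gate thresholds doubled, the log2 fold of manf over matn1-high cells went from 1.07 to 0.39.

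The gene hsp90b1 encodes Grp94, the Hsp90 of the endoplasmic reticulum, and followed hspa5 at the top of the order. Its WT level was 161 CPM (137 to 188) in col5a1/mfap2-high cells, 95.4 CPM (80.7 to 112) in fn1b/tgm2l-high cells and 55.2 CPM (49.1 to 61.9) in matn1-high cells. The col5a1/mfap2-high cells stood above the next group by 1.69-fold (1.34 to 2.12).

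The disulfide isomerase gene pdia6 kept a narrow range in some groups and was lower in others. Its level lay between 54.1 and 66.8 CPM in matn1-high, matn1-intermediate, cycling, fn1b/tgm2l-high, mmp13b/spp1-high and col5a1/mfap2-high cells. It was at 25.5 CPM (13.95 to 42.8) in col10a1a-positive cells, at 40.3 CPM (23.5 to 64.6) in ccl25b/cxcl12a-high cells and at 25.8 CPM (15.96 to 39.4) in low-marker cells. The highest group, fn1b/tgm2l-high cells, stood 2.615-fold (1.49 to 4.95) above the lowest, col10a1a-positive cells. The related gene pdia4 lay between 10.9 and 30.9 CPM, and no neighbours in its order differed beyond counting error. The gene creld2, for a protein induced by stress of this compartment in mammals, had 34 UMIs in all of WT, of which col5a1/mfap2-high cells held 9, at 9.06 CPM (4.14 to 17.2).

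**Figure D1:**
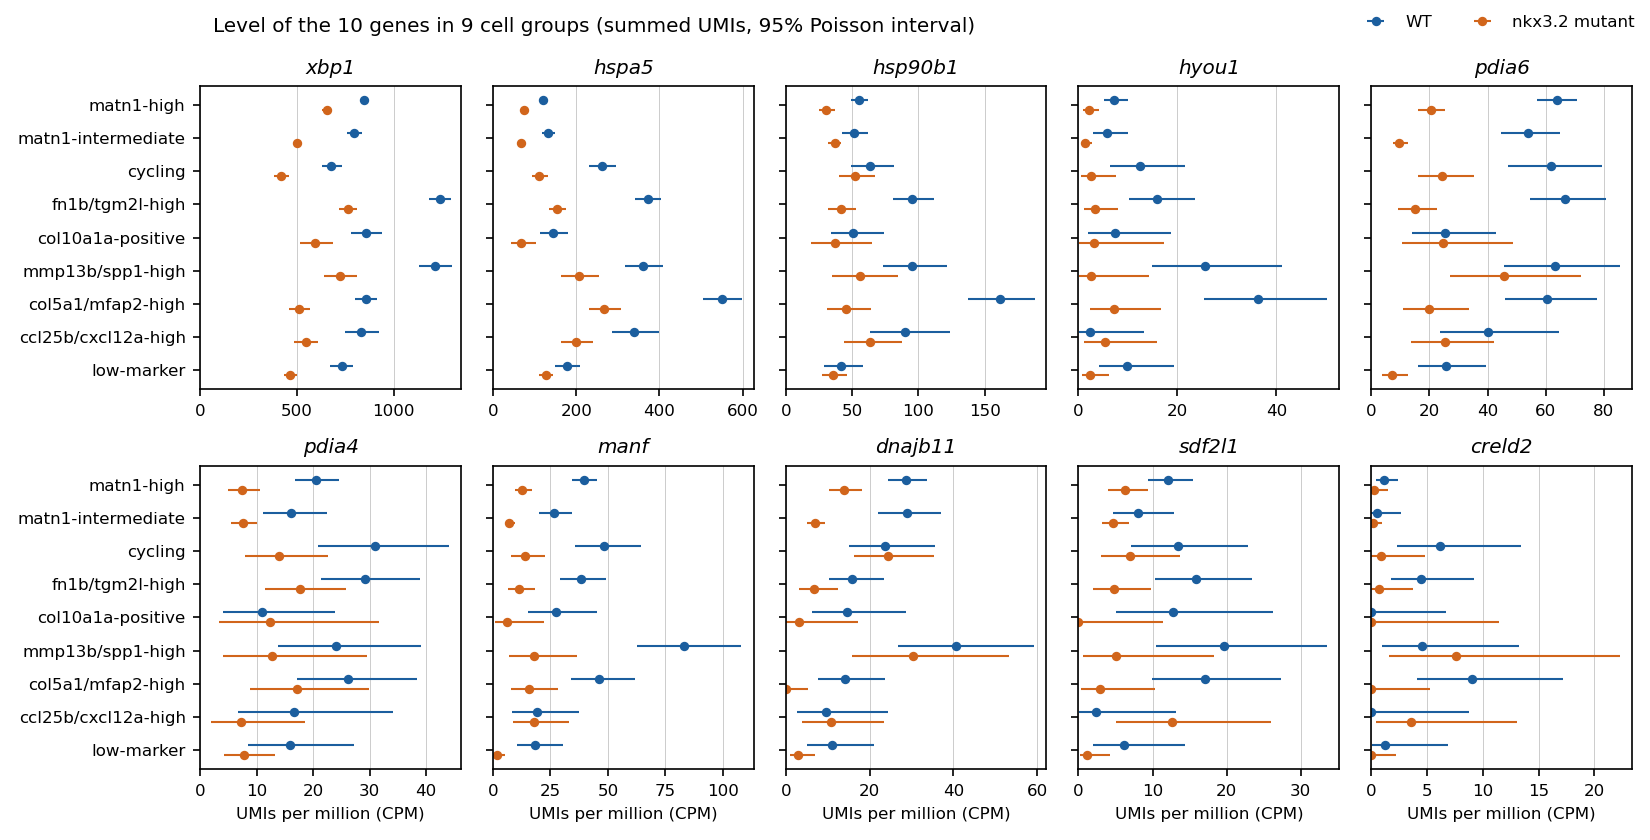
Level of each of the 10 genes (x axis, CPM, linear from 0) in 9 cell groups (y axis) for the WT and the mutant library. Points are summed UMIs over the group total and bars are 95% Poisson intervals. Among these 9 groups, hspa5, hsp90b1 and hyou1 are highest in WT col5a1/mfap2-high cells, manf and dnajb11 in WT mmp13b/spp1-high cells, and xbp1 in WT fn1b/tgm2l-high cells. For hyou1, dnajb11 and xbp1 the top group does not differ from the next beyond counting error.

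Against the share of all genes, members called higher than in matn1-high cells were about as frequent or fewer, and members called lower were more frequent in 3 groups. A gene counts as measured with at least 20 UMIs in the pair of groups compared, and as called at 1.5-fold or more, whatever its interval. Of the 9 measured members, 3 were called higher in col5a1/mfap2-high cells, where 45.1% of all measured genes were, and dnajb11 was called lower, where 14.9% were. In fn1b/tgm2l-high cells 3 were called higher against 32.1% of all genes, and dnajb11 lower against 15.6%. In cycling cells 3 were higher against 34.8% and none lower against 10.2%, and in mmp13b/spp1-high cells 5 were higher against 45.6% and none lower against 11.5%.

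The 3 groups with 3 or more members called lower had pdia6 and dnajb11 in common, but not always beyond counting error. The interval reached 1 for pdia6 in ccl25b/cxcl12a-high cells, 0.633 (0.364 to 1.03), and for dnajb11 in col10a1a-positive cells, 0.506 (0.215 to 1.02). It also did for pdia4 in col10a1a-positive cells and for sdf2l1 in low-marker and ccl25b/cxcl12a-high cells. In low-marker cells 4 members were called lower, pdia6, manf, dnajb11 and sdf2l1, against 13.8% of all genes, and none was called higher against 38.5%. In ccl25b/cxcl12a-high cells the same 4 genes were called lower against 13.1%, sdf2l1 from 1 UMI, and 2 were called higher against 47.5%. In col10a1a-positive cells pdia6, pdia4 and dnajb11 were called lower against 10.6%, and none was called higher against 35.7%. In matn1-intermediate cells no member was called in either direction, against 17.6% of all genes higher and 9.39% lower.

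Within single groups of WT cells, those with more xbp1 carried more of the 9 other genes beyond counting error in 2 of the 5 groups with enough cells. For the 8 genes left without hspa5, this held in fn1b/tgm2l-high cells and was reversed in matn1-intermediate cells. In matn1-high cells it depended on the random draw of UMIs. Splitting by hspa5 separated the same 8 genes in all 5 groups. To compare cells at 1 depth, each cell was thinned at random to 3000 UMIs, which left out 254 WT and 173 mutant cells. In matn1-high WT cells, 161 cells with at most 1 thinned xbp1 UMI carried the 9 other genes at 313 CPM and 207 cells with at least 4 carried them at 434 CPM, a fold of 1.39 (1.13 to 1.71). In fn1b/tgm2l-high cells the fold was 1.71 (1.37 to 2.16), from 472 to 808 CPM, and in col5a1/mfap2-high cells 1.23 (0.969 to 1.55), from 836 to 1024 CPM. It was 0.913 (0.667 to 1.24) in matn1-intermediate and 1.07 (0.671 to 1.68) in low-marker cells. In matn1-high cells hspa5 gave the clearest part of it, at 89.1 and 153 CPM, a fold of 1.72 (1.19 to 2.53), whereas dnajb11 was at 37.3 and 37.1 CPM.

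Without hspa5, the sum of the remaining 8 genes was 1.26-fold higher in the high-xbp1 matn1-high cells (0.982 to 1.61), 1.55-fold in fn1b/tgm2l-high cells (1.104 to 2.20) and 1.17-fold in col5a1/mfap2-high cells (0.810 to 1.67). In matn1-intermediate cells it went the other way, at 280 CPM in low-xbp1 and 169.6 CPM in high-xbp1 cells, a fold of 0.606 (0.385 to 0.935), and in low-marker cells it was 1.005 (0.453 to 2.17). The matn1-high value moved with the random thinning: with another seed it was 1.56 (1.22 to 2.02), above the 1.43 (1.16 to 1.76) of the 9 genes, and at 4000 UMIs per cell 1.33 (1.08 to 1.65) against 1.31 (1.102 to 1.55). Of 6 single genes measured in matn1-high cells, hspa5 and manf were called higher, where 14.0% of all genes were. In fn1b/tgm2l-high cells 3 of 4 were (14.8% of all genes), in matn1-intermediate cells 1 of 3 (16.3%), in col5a1/mfap2-high cells 0 of 3 (15.4%) and in low-marker cells 0 of 1 (12.4%). In matn1-high cells the thinned xbp1 count had a mean of 2.90 UMIs and a variance 1.502 times the mean, where counting alone gives a variance equal to the mean. Before thinning, the high-xbp1 matn1-high cells were also shallower, with a median of 7180 UMIs against 9555, and the part of that in the fold was not tested.

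When the same cells were split by hspa5 instead, a split added after the data had been seen, the 8 genes were higher in the cells with hspa5 in all 5 groups. In matn1-high cells, 431 cells had no thinned hspa5 UMI and carried the 8 genes at 189.5 CPM, while 176 cells with at least 1 carried them at 381 CPM, a fold of 2.01 (1.66 to 2.43). In fn1b/tgm2l-high cells the values were 138 CPM in 128 cells with none and 689 CPM in 78 cells with at least 2, a fold of 4.99 (3.64 to 6.94). In col5a1/mfap2-high cells they were 176 CPM in 55 cells and 547.5 CPM in 64 cells, a fold of 3.12 (2.05 to 4.88). The fold was 2.55 (1.81 to 3.60) in matn1-intermediate and 2.47 (1.29 to 4.83) in low-marker cells.

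Single genes in the fn1b/tgm2l-high cells showed the width of the gap. There hsp90b1 was at 28.6 CPM in cells without hspa5 and 239.6 CPM in cells with 2 or more, an 8.36-fold difference (4.34 to 17.7), and pdia6 was at 49.5 and 154 CPM, 3.11-fold (1.74 to 5.75). The factor gene xbp1 differed little, at 1250 and 1322 CPM, 1.06-fold (0.914 to 1.22), and dnajb11 had 7 and 4 UMIs. Of 5 single genes measured in this split, 4 were called higher against 17.8% of all genes; in matn1-high cells 6 of 7 were, against 10.8%, and in col5a1/mfap2-high cells 2 of 3, against 13.9%. In matn1-intermediate cells it was 3 of 4, against 17.5%, and in low-marker cells 0 of 1, against 10.4%. The cargo genes as a sum were lower, not higher, in the fn1b/tgm2l-high cells with hspa5: 34440 and 29688 CPM, 0.862-fold (0.837 to 0.888).

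The mutant library, cut at the same counts, gave a like difference by hspa5 in 4 of 5 groups. The sum of the 8 genes was 2.61-fold higher in hspa5-carrying matn1-high cells (1.75 to 3.84), 3.43-fold in fn1b/tgm2l-high (1.67 to 6.70), 2.80-fold in col5a1/mfap2-high (1.37 to 5.70) and 4.18-fold in low-marker cells (2.14 to 8.34). The exception was the matn1-intermediate group, at 77.5 CPM without and 64.1 CPM with hspa5, a fold of 0.827 (0.485 to 1.35). By xbp1, the mutant matn1-high cells gave 66.3 and 136 CPM for the 8 genes, 2.05-fold (1.22 to 3.44), and in none of the other 4 groups did the interval clear 1. There the folds were 1.63 (0.8785 to 2.875) in matn1-intermediate cells, against 0.606 in WT, 1.39 (0.6195 to 2.91) in fn1b/tgm2l-high, 2.07 (0.767 to 5.12) in col5a1/mfap2-high and 1.02 (0.420 to 2.27) in low-marker cells. For hspa5 itself the mutant fn1b/tgm2l-high cells gave 0.991 (0.529 to 1.76), where WT gave 1.85 (1.36 to 2.54). The xbp1 and hspa5 splits use different cuts of unequal sharpness, and in matn1-high cells their distance depends on the thinning. By hspa5 the fold of the 8 genes was 1.5 (1.26 to 1.78) at 4000 UMIs per cell and 1.89 (1.56 to 2.28) with another seed, where by xbp1 it was 1.33 and 1.56.

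**Figure D2:**
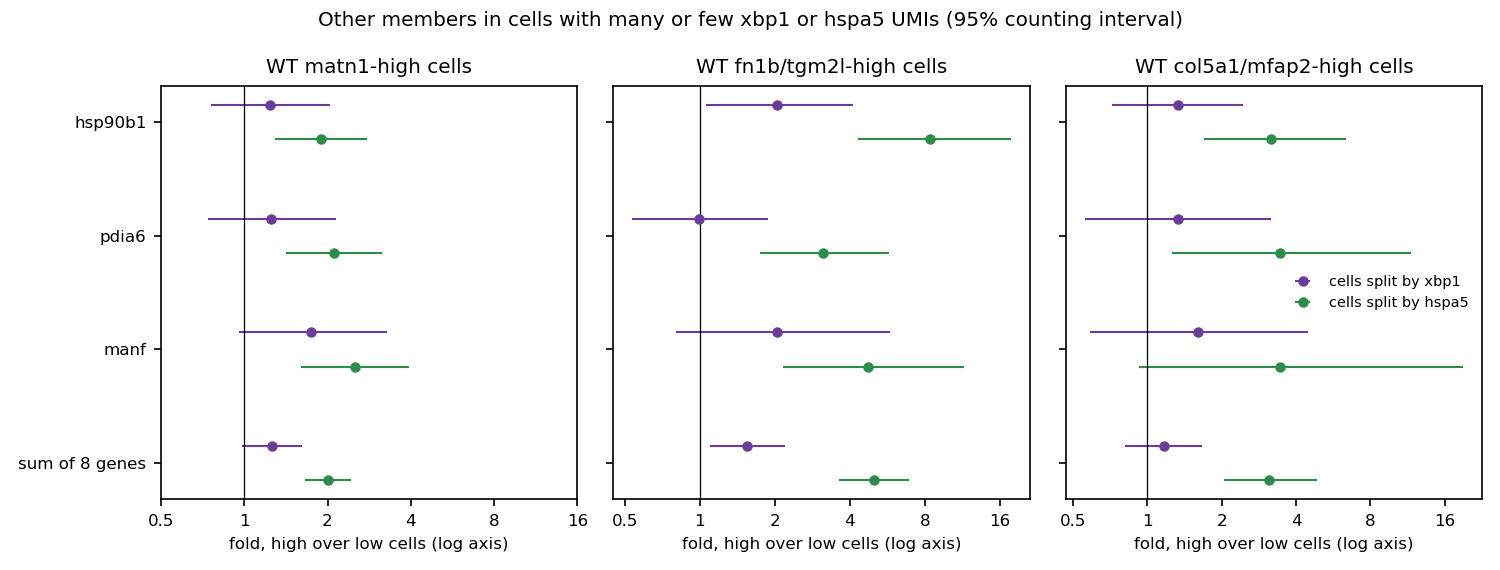
Fold of 3 single genes and of the sum of 8 genes (y axis) in WT cells with many over few thinned xbp1 or hspa5 UMIs (x axis, log scale), in matn1-high, fn1b/tgm2l-high and col5a1/mfap2-high cells. Points are folds and bars 95% counting intervals; by hspa5 the sum lies at 2.01, 4.99 and 3.12, by xbp1 at 1.26, 1.55 and 1.17. With another thinning seed the matn1-high values were 1.89 and 1.56.

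Correlations over cells were near 0 for xbp1 and higher for many, not all, pairs of chaperone genes in fn1b/tgm2l-high than in matn1-high cells. They describe sparse counts within 1 library. Over 607 thinned matn1-high WT cells, Pearson's r of xbp1 with 7 other genes ran from -0.015 to 0.099, and that of hspa5 with 6 of them from 0.057 to 0.210. Over 268 fn1b/tgm2l-high cells, r was 0.494 between hspa5 and hsp90b1, 0.388 between hspa5 and manf and 0.084 between xbp1 and hspa5. Over 171 col5a1/mfap2-high cells it was 0.449 between hspa5 and hsp90b1 and 0.388 between hspa5 and hyou1. Other pairs were lower than in matn1-high cells. Between hspa5 and pdia6, r was 0.050 in matn1-intermediate against 0.210 in matn1-high cells. Between pdia6 and manf it was 0.071 in col5a1/mfap2-high and 0.185 in fn1b/tgm2l-high against 0.252 in matn1-high cells. The genes most like the sum of all 10, among 551 genes with at least 200 thinned UMIs in the matn1-high WT cells, were ssr3 (r = 0.286), ptmab (0.285), serpinh1b (0.252), ddx5 (0.240), h3f3d (0.235), sparc (0.234), ostc (0.226) and atf4b (0.221), where the median over all ranked genes was 0.013. Because xbp1 dominates that sum, the ranking was repeated on the 9 others, after the data had been seen: ssr3 (0.312), sep15 (0.307), fkbp9 (0.305) and ostc (0.294) then led. Of these, ssr3, of the translocon-associated complex, stood at 0.961 of its WT level in the matn1-high cells of the mutant (0.912 to 1.01), while sep15, fkbp9 and ostc stood at 0.453 (0.402 to 0.509), 0.4235 (0.379 to 0.473) and 0.490 (0.427 to 0.562). All these values share the same cells and depth.

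Between the libraries, all 10 genes were lower in the mutant when all cells were summed. The background has to be read beside this: 22.3% of 11539 measured genes were also at least 1.5-fold lower, and 13.9% at least 1.5-fold higher. The median log2 ratio of mutant over WT was -1.32 over the 10 genes and -0.13 over all genes measured. The smallest ratio was that of hyou1, at 11.5 CPM (WT) and 2.32 CPM (mutant), 0.202 (0.138 to 0.289), and the largest that of xbp1, at 884 and 560.0 CPM, 0.634 (0.617 to 0.651). The gene creld2 was at 2.44 and 0.551 CPM from 34 and 9 UMIs, a ratio of 0.225 (0.0950 to 0.480). No single group gave it 20 UMIs, so it is described for all cells only.

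The lower levels were found in nearly every group. Of the 90 pairs of a gene and a group, 62 had at least 20 UMIs over both libraries. In 61 of these the mutant was lower, in 50 by 1.5-fold or more, and in 48 the counting interval of the ratio lay below 1; in no pair did it lie above 1. The exception was dnajb11 in cycling cells, at 23.7 CPM (WT) and 24.4 CPM (mutant), 1.03-fold (0.572 to 1.87). By group, the number of measured genes called lower was 8 of 9 in matn1-high cells (17.8% of all genes), 8 of 9 in matn1-intermediate (23.4%), 9 of 9 in fn1b/tgm2l-high (22.0%) and 7 of 7 in col5a1/mfap2-high cells (26.7%). It was 6 of 8 in cycling (19.2%), 5 of 7 in mmp13b/spp1-high (27.4%), 3 of 4 in ccl25b/cxcl12a-high (23.7%), 3 of 5 in low-marker (26.8%) and 1 of 4 in col10a1a-positive cells (21.7%). The minimum applies to the sum of both libraries, so at a given WT count a gene lower in the mutant passes it less easily. These counts therefore describe the measured genes and not all 10.

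**Figure D3:**
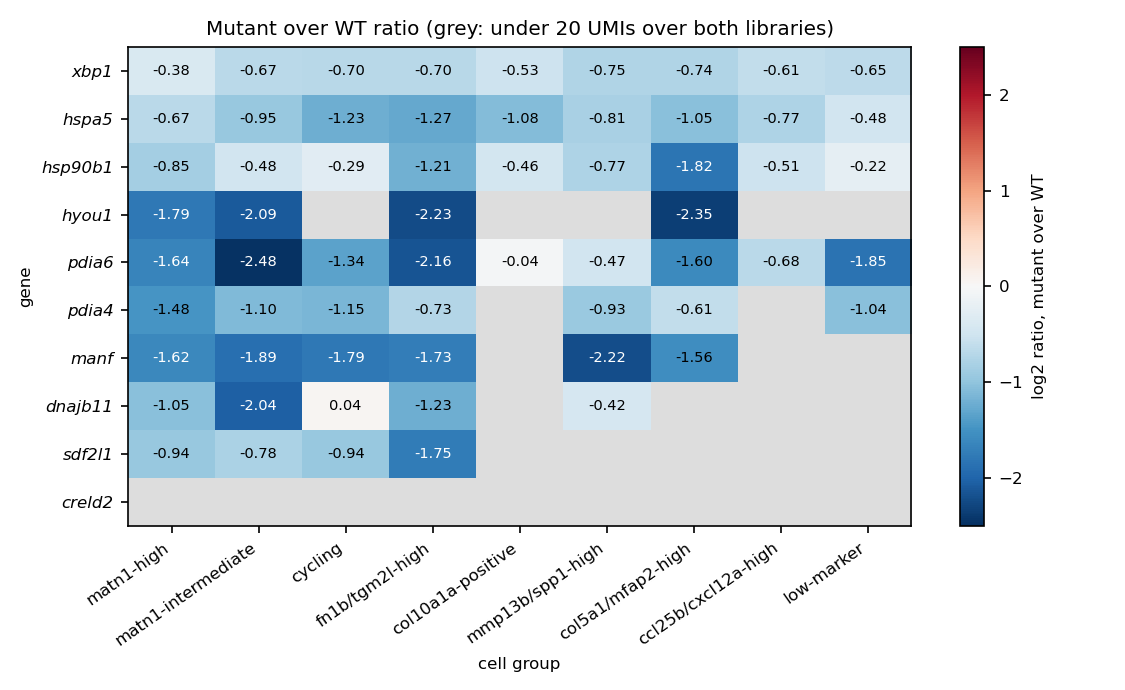
Log2 ratio of mutant over WT for each gene (rows) in each of 9 cell groups (columns), with the value printed in the cell and grey where fewer than 20 UMIs were counted over both libraries. All coloured cells are below 0 except dnajb11 in cycling cells at 0.04, and the lowest is pdia6 in matn1-intermediate cells at -2.48.

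With all cells summed, in matn1-high and in fn1b/tgm2l-high cells, the factor gene xbp1 was lower by less than every other measured gene. In every other group some measured gene was lowered less. The log2 ratio of hsp90b1 was -0.48 in matn1-intermediate cells (xbp1 -0.67), -0.29 in cycling (-0.70) and -0.51 in ccl25b/cxcl12a-high cells (-0.61). That of dnajb11 was -0.42 in mmp13b/spp1-high cells (xbp1 -0.75), and that of pdia4 -0.61 in col5a1/mfap2-high cells (-0.74). In matn1-high cells xbp1 was at 848 CPM (823 to 872.5) in WT cells and at 654 CPM in mutant cells, a ratio of 0.771 (0.734 to 0.810). In col10a1a-positive cells its log2 ratio of -0.53 lay below that of hsp90b1 (-0.46) and pdia6 (-0.04) and above that of hspa5 (-1.08). In low-marker cells its -0.65 lay below hspa5 (-0.48) and hsp90b1 (-0.22) and above pdia4 (-1.04) and pdia6 (-1.85). Over the 9 groups the log2 ratio of xbp1 kept between -0.75 and -0.38, the narrowest range among the genes measured in all 9 groups. The part of its higher UMI counts in this was not tested. It was called lower in 7 of the 9 groups, against 17.8% to 27.4% of all genes over the 9.

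For hspa5 the matn1-high values were 119.7 and 75.5 CPM, a ratio of 0.630 (0.547 to 0.726). In col5a1/mfap2-high cells, where WT was highest among the groups compared, they were 551 and 267 CPM, 0.484 (0.408 to 0.573), and in fn1b/tgm2l-high cells 371 and 154 CPM, 0.414 (0.354 to 0.484). All 9 intervals of hspa5 lay below 1. Its partner hyou1 was at 36.2 and 7.13 CPM in col5a1/mfap2-high cells, 36 and 5 UMIs, a ratio of 0.197 (0.0603 to 0.503). In matn1-high cells hyou1 was at 7.25 and 2.10 CPM, 0.289 (0.117 to 0.628).

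The other partners were also lower in most groups where they could be measured. The gene manf stood at 39.4 and 12.8 CPM in matn1-high cells, 0.326 (0.234 to 0.446), and at 82.95 and 17.8 CPM in mmp13b/spp1-high cells, 0.214 (0.0823 to 0.472). It was called lower in all 6 groups that measured it. The J-domain gene dnajb11 was at 28.8 and 13.9 CPM in matn1-high cells, 0.482 (0.346 to 0.6625), and at 28.9 and 7.02 CPM in matn1-intermediate cells, 0.243 (0.1598 to 0.365). In col5a1/mfap2-high cells WT cells held 14 UMIs of it and mutant cells 0, too few for the count of pairs, with an upper bound of 0.427 on the ratio. Its partner sdf2l1 stood at 12.1 and 6.29 CPM in matn1-high cells, 0.521 (0.312 to 0.843).

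The disulfide isomerase gene pdia6 had the lowest ratio of all measured pairs, in matn1-intermediate cells. It was at 63.75 and 20.4 CPM in matn1-high cells, 0.321 (0.247 to 0.411), at 54.1 and 9.69 CPM in matn1-intermediate cells, 0.179 (0.128 to 0.248), and at 66.8 and 14.9 CPM in fn1b/tgm2l-high cells, 0.223 (0.134 to 0.356). In the hypertrophy-marked groups the counts did not separate the libraries: 25.5 and 24.8 CPM in col10a1a-positive cells from 14 and 8 UMIs, 0.972 (0.353 to 2.48), and 63.3 and 45.7 CPM in mmp13b/spp1-high cells, 0.721 (0.391 to 1.28). Whether pdia6 differs between these groups and the matn1 groups in its ratio was not tested. The gene pdia4 was at 20.4 and 7.34 CPM in matn1-high cells, 0.359 (0.228 to 0.5475), and at 26.2 and 17.1 CPM in col5a1/mfap2-high cells, 0.654 (0.301 to 1.34).

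For the Hsp90 of the compartment, hsp90b1, the ratio was lowest where its WT level was highest. It was at 161 and 45.6 CPM in col5a1/mfap2-high cells, 0.283 (0.1875 to 0.416), at 95.4 and 41.3 CPM in fn1b/tgm2l-high cells, 0.433 (0.316 to 0.587), and at 55.2 and 30.7 CPM in matn1-high cells, 0.555 (0.4445 to 0.690). In cycling cells it was at 63.8 and 52.3 CPM, 0.819 (0.565 to 1.19), and 5 of its 9 intervals lay below 1.

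The share of cargo genes was lower in the mutant in 8 of the 9 groups and higher in the ccl25b/cxcl12a-high cells. In matn1-high cells the cargo genes took 10.4% of UMIs in WT and 7.77% in the mutant, and the 9 genes went from 348 to 169 CPM, so that their sum per 1000 cargo UMIs was 3.34 and 2.18. In col10a1a-positive cells that sum was 5.46 and 5.55. The part of the cargo share in the ratios was not tested. In col5a1/mfap2-high cells the same sum was at 921 and 375 CPM, a ratio of 0.407 (0.354 to 0.468), and in ccl25b/cxcl12a-high cells 519.7 and 345 CPM, a ratio of 0.663 (0.543 to 0.809), where the cargo share was 0.4425% in WT and 0.584% in mutant cells. Without mitochondrial and ribosomal protein genes in the total, the median log2 ratio in matn1-high cells was -0.93 in place of -1.05, and 7 of 9 genes were called, while the median of all genes went from -0.01 to 0.11. With all gate thresholds doubled it was -0.68 and 5 were called, with the median of all genes at 0.21.

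Matn1-high cells in the same bin of xbp1 counts still differed between the libraries. At the WT cuts, the mutant matn1-high cells were divided into 171 low, 169 middle and 76 high, against 161, 239 and 207 in WT. The 9 other genes were at 313 CPM (WT) and 117 CPM (mutant) in the low bin, a ratio of 0.374 (0.273 to 0.508). They were at 377 and 203 CPM in the middle bin, 0.540 (0.426 to 0.679), and at 434 and 215 CPM in the high bin, 0.496 (0.358 to 0.675). The ratio was below 1 beyond counting error in all 3 bins, and their intervals overlapped. The low and high bins are open-ended, and xbp1 within them was lower in the mutant. In matn1-high cells it was at 209 (WT) and 185 CPM (mutant) in the low bin and 1750 and 1640 CPM in the high bin. It was at 427 and 299 CPM in the low fn1b/tgm2l-high bin and 1800 and 1444 CPM in the high col5a1/mfap2-high bin. The part of this in the ratios was not tested. In fn1b/tgm2l-high cells the 3 ratios were 0.473, 0.270 and 0.310, and in col5a1/mfap2-high cells 0.341, 0.498 and 0.348, each beyond counting error. Those of matn1-intermediate cells are not given here. In low-marker cells the ratio was 0.760 (0.528 to 1.11) in the low, 0.538 (0.287 to 0.983) in the middle and 0.615 (0.359 to 1.04) in the high bin, so only the middle one was.

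Other genes of the pathway were read from 9 lists, of which 148 of 166 written symbols matched a single entry. In matn1-high cells the lectin chaperone cycle, which holds and re-folds glycoproteins, had 9 of 10 measured genes called lower and a median log2 ratio of -1.12, against -0.01 for all genes. Among those called, prkcsh, for a subunit of glucosidase II, was at 85.1 and 35.1 CPM, canx, for calnexin, at 54.8 and 27.5 CPM, and mogs, for glucosidase I, had the lowest ratio, 0.3005 (0.151 to 0.553). The one not called was calr3a, for a calreticulin, at 78.3 and 53.5 CPM. The collagen folding helpers had 13 of 16 called lower, with a median of -0.81: the collagen chaperone serpinh1b was at 718 and 357.5 CPM and the prolyl hydroxylase subunit p4ha2 at 75.7 and 27.8 CPM, while ppib, for cyclophilin B, was not called, at 2001 and 1610 CPM. Both lists therefore held more genes called lower than the 17.8% of all genes.

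Among the disulfide enzymes 5 of 10 were called lower, with p4hb, for protein disulfide isomerase, at 801 and 383 CPM, a ratio of 0.478 (0.45 to 0.507), and pdia3 at 577 and 561 CPM, 0.973 (0.921 to 1.03). The list of co-chaperones and nucleotide exchange had 5 of 8 called lower and a median of -0.675, the lowest being dnajc3a at 10.8 and 3.41 CPM. Its called genes include sec63 (0.552) and sec62 (0.655), which also serve translocation and are not in the translocation list. Translocation into the endoplasmic reticulum had 4 of 19 called lower and a median of -0.25: sec61g, the small channel subunit, was at 3308 and 3059 CPM, while ssr1, of the translocon-associated complex, had a ratio of 0.378 (0.225 to 0.612). The degradation list had 2 of 12 called lower and a median of -0.07, led by vcp, the segregase that extracts misfolded proteins, at 29.6 and 9.96 CPM. In these matn1-high cells the counts called lower in the translocation and degradation lists lay near the 17.8% of all genes. The translocation median of -0.25 lay below the -0.01 of all genes.

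The sensors and factors had 2 of 10 called lower, 1 called higher and a median of -0.33. The factor gene ddit3, induced when stress persists, was at 78.4 and 30.7 CPM, 0.391 (0.316 to 0.481), and atf6 at 10.8 and 5.24 CPM, whereas creb3l1 was at 18.6 and 30.9 CPM, 1.66-fold higher (1.26 to 2.19), where 17.3% of all genes were called higher. The sensor gene ern1 had 14 UMIs in all WT cells and 16 in all mutant cells, and eif2ak3 25 and 25, too few to compare by group. In the list named cytosolic chaperones, for stress outside the compartment, 3 of 18 were called lower and the median was -0.15. The list also holds hspa9, hspd1 and hspe1, whose products act in mitochondria, and hspa9 (ratio 0.6665) was among those called. Of the others, hspa8 was at 3384 and 2973 CPM, while hsp70l, induced by stress, was at 44.2 and 16.2 CPM, 0.367 (0.273 to 0.488). The ratio of hsp70.1 was also low, at 0.398 (0.280 to 0.555). The more abundant hsp70.3 was at 251 and 233 CPM, 0.929 (0.853 to 1.01). By contrast, dnajb1b was higher in the mutant, at 175 and 218 CPM, 1.24-fold (1.13 to 1.37). The part of handling stress in the ratios of the 10 genes was not tested. The cargo list had 3 of 19 called lower and 1 called higher, with a median of -0.42. In the sensor, cytosolic chaperone and cargo lists the counts called lower lay near the 17.8% of all genes. Their medians all lay below the -0.01 of all genes.

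**Figure D4:**
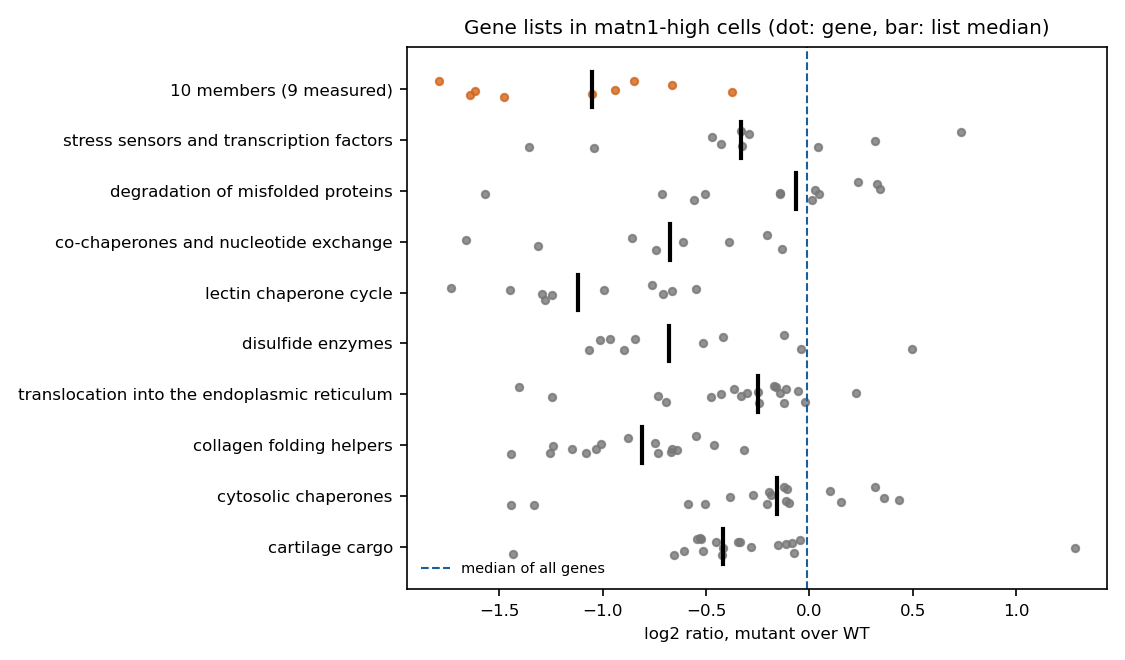
Log2 ratio of mutant over WT (x axis) in matn1-high cells for each measured gene (dots) of the 10 members and of 9 related lists (rows), with the list median as a bar and the median of all genes as a dashed line. The member median lies at -1.05 and that of the lectin chaperone cycle at -1.12, while the translocation, degradation and cytosolic chaperone medians lie at -0.25, -0.07 and -0.15.

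The same order of lists held in other groups only in part. In fn1b/tgm2l-high cells, where 22.0% of all genes were called lower, the lectin chaperone cycle had 7 of 7 called lower (median -1.23), the collagen folding helpers 10 of 14 (-0.75) and the translocation list 3 of 19 (-0.12). The list named cytosolic chaperones had 7 of 19 called lower there (-0.22), and the cargo list itself 12 of 20 (-0.71), against -0.04 for all genes. In col5a1/mfap2-high cells, against 26.7% of all genes, these were 6 of 7 (-1.34), 8 of 12 (-0.89) and 5 of 17 (-0.33), the last a share near that of all genes, and the degradation list had 4 of 6 called lower, with a median of -1.10. There the cargo list had 4 of 19 called lower and a median of -0.25, close to the -0.24 of all genes. In mmp13b/spp1-high cells the collagen folding helpers had 4 of 12 called lower, near the 27.4% of all genes, and a median of -0.32, against -0.23 for all genes, and the translocation list had 1 of 17 and a median of 0.05. The degradation list had 4 of 9 called lower in fn1b/tgm2l-high cells, with a median of -0.54. In matn1-intermediate cells it had 6 of 12 (-0.55), against 23.4% of all genes, and in mmp13b/spp1-high cells 1 of 5 (-0.44). Lists of few measured genes are given for description only.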

How the data were processed

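The authors deposited whole-number UMI counts per gene and cell barcode, made with Cell Ranger per the submitters' processing notes; its version, the genome build and the annotation are not given in the sources used here, so no coordinates are printed. The age is that of the sample characteristics; the protocol text gives 21 days for both libraries. The 10 members and the 9 gene lists were chosen with earlier results of these data known.

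Barcodes with under 500 UMIs, under 300 genes or over 20% mitochondrial UMIs would have been removed (0 were), and 3 WT cells with over 5% globin UMIs were. No doublets were called; 108 cells passed 2 or more exclusive gates, and the libraries share 4 barcodes. Marker genes of the gates exclude the members; thresholds and order were set after looking at the gate genes. The ccl25b/cxcl12a gate also uses rgs5a, the fn1b/tgm2l gate f13a1b and mgp, and the mmp13b/spp1 gate ihha. The col5a1/mfap2 gate also uses postnb, dcn, lum, tnmd, col12a1a and col1a2. The krt4/cfd gate adds icn and epcam, and the ifitm5/bglapl gate sp7. Counts were summed per group and library and divided by the group total (CPM), with exact Poisson intervals for sums and exact conditional binomial intervals for ratios. For log2 ratios a sum under 3 was set to 3. Called means at least 1.5-fold, measured at least 20 UMIs over both groups compared.

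Cells thinned to 3000 UMIs were cut by their xbp1 count into 3 bins as near to equal size as ties allow, and the total excludes the split gene. A first cut was replaced after its values had been seen. The split by hspa5, the ranking on 9 genes and 2 cell filters were added after the data had been seen. Named genes were all 10 members, up to 3 of the most abundant and the most different gene of each list, and the 8 genes most correlated with the members. The genes ern1, eif2ak3, atf6, creb3l1, hsp70.1, hsp70.3, hspa4b and dnajb1b and the order of groups were named after their values had been seen. Ratio and split methods were tried on simulated Poisson counts, for the split without the thinning step and with other cuts than the final ones. The final split itself was therefore not tested. Alternatives were other scalings (edgeR 4.0.16 TMM, DESeq2 1.42.0 size factors, no model fitted), per-cell means, stricter filters, doubled gates, a 100 UMI minimum, Leiden clusters (scanpy 1.11.5, leidenalg 0.10.2), other thinning and the cells left out. Python 3.11.15, numpy 2.4.6, scipy 1.17.1, pandas 2.3.3, matplotlib 3.10.9 and R 4.3.3 were used.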

Additional observations from a re-analysis of the deposited data

How the results depend on the processing

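The lower levels in the mutant held their direction in nearly all settings. Of 739 alternative values of single ratios over 12 settings, 723 were below 0 and 2 changed sign from a called value: sdf2l1 in cycling cells, at 0.13 without the 5% of cells with the most UMIs, and pdia4 in col5a1/mfap2-high cells, at 0.13 with gates doubled. The 8 genes called in matn1-high cells were 5 with gates doubled, and the 50 called pairs were 25 when at least 100 UMIs were asked, which tests fewer pairs. In 12 Leiden clusters of at least 30 cells per library in place of gates, the member medians ran from -1.73 to -0.46, and 81 of 83 pairs were below 0. Dropping mitochondrial and ribosomal protein genes from the total moved the median of all genes in all cells from -0.13 to 0.03. The WT log2 folds over matn1-high cells moved more. That of hspa5 in col5a1/mfap2-high cells went from 2.20 to 1.83 without mitochondrial, ribosomal protein and cargo genes and to 1.95 with every cell at equal weight; that of xbp1 in fn1b/tgm2l-high cells from 0.55 to 0.26 and, with gates doubled, 0.445; that of manf in mmp13b/spp1-high cells from 1.07 to 0.60 and 0.39. In matn1-high WT cells the log2 fold of the 9 genes by xbp1 was 0.87 without thinning in place of 0.47, and that of 8 genes by hspa5 was 0.59 at 4000 UMIs in place of 1.01. The cause of these moves was not tested. The first cut tried for xbp1 gave 1.38-fold for the 9 genes, against 1.39. No paired analysis was possible because each genotype is 1 library. Groups of under 100 cells hold few UMIs of the rarer genes, so a missing difference there is not detectable at this depth.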

Other observations

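Groups left out of the comparison as too small gave one value against the common direction. In cells with the epithelial genes krt4 and cfd (47 WT, 28 mutant), hspa5 was at 114 CPM in WT and 178 CPM in mutant cells from 34 and 35 UMIs, a ratio of 1.56 (0.9455 to 2.58), while xbp1 there was at 666 and 391 CPM, 0.587 (0.445 to 0.767). In the ifitm5/bglapl cells (28 and 13), hspa5 was at 599 and 231 CPM, 0.386 (0.221 to 0.640), and manf had 22 and 1 UMIs. Whether hspa5 differs between these groups in its ratio was not tested.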
